A study of Drosophila pseudoobscura with 29 samples.

Results

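The genes described here are cuticle protein genes of *Drosophila pseudoobscura*: the Cpr47E cluster (Cpr47Ea to Cpr47Eg) and the ecdysone-dependent genes Edg78E, Edg84A and Edg91. They were chosen by name from a list of 10 identifiers put together with the measured time courses of some of them known, so their courses are given as a description. A model fitted over all genes is quoted for them only beside the share it called among all genes, and carries no evidence for their courses. Of the 10 genes, 5 had a row among the 8466 genes of the deposited gene table: Cpr47Eb (FBgn0033598), Cpr47Ec (FBgn0033600), Cpr47Ee (FBgn0033602), Cpr47Eg (FBgn0086519) and Edg78E (FBgn0000551). Cpr47Ea, Cpr47Ed, Cpr47Ef, Edg84A and Edg91 were not analysed here. The table names *D. pseudoobscura* genes by *D. melanogaster* identifiers.

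The samples were whole embryos of the wild-type reference genome strain, untreated, laid in population cages, collected over 1 hour and aged. There were 29 windows, from 0-1 h to 28-29 h after egg laying, with 1 library for each. Promoter activity was measured by RAMPAGE, which sequences cDNAs complete at their 5′ ends, so that each read marks a transcription start site. The windows were told apart by barcodes and shared 1 sequencing lane.

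The insect cuticle is a layer of chitin fibres and proteins that epidermal cells secrete and that covers the larva at hatching. Cpr proteins carry the Rebers-Riddiford domain, which binds chitin, and the genes often lie in clusters along a chromosome. The Edg genes were first found in *D. melanogaster* imaginal discs, where the hormone ecdysone controls them, and Edg78E and Edg84A encode pupal cuticle proteins there.

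Levels are in RPM (reads per 1000000 reads of the library). Each cDNA gives 1 start whatever the length of its transcript, so RPM needs no correction for length. Whether cDNAs of different genes gave reads at the same rate was not tested, which limits comparisons of level between genes. In the 28 libraries used, 1 read was worth between 0.0833 and 1.37 RPM, and 723775 to 11862896 reads were recovered from each. The window at 27-28 h, with only 1011 reads, was not used. With 1 library per window there was no replicate error. Intervals on levels are 95% intervals for counting error only, Clopper-Pearson within a window and exact Poisson over pooled windows, and the scatter between windows is given separately. Reads carried no molecular identifiers in these tables. In whole embryos, fewer cells of a type and less RNA per cell cannot be told apart.

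Cpr47Eg had by far the highest level of the 5 genes, and from 20-21 h on it was the most abundant gene of all 8466 in each of the 8 libraries used. It held 2.45% of the library at 20-21 h (interval 2.41% to 2.48%), then 6.39%, 4.41% and 7.03% in the 3 windows up to 24 h. Its share was highest at 24-25 h, with 7.81% (interval 7.78% to 7.83%), and was 5.32%, 7.27% and 5.54% in the windows used after that. Its level was 1.12 times that of the next most abundant gene at 20-21 h and between 2.96 and 10.9 times in the 7 later libraries. In RPM the maximum was 78072, at 24-25 h, against 17981 RPM for the next gene in that window.

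The climb of Cpr47Eg to this level passed through the ranks over a few hours. Its level was 694 RPM at 16-17 h, where it was the 169th gene, 2537 RPM at 17-18 h (the 32nd) and 2701 RPM at 18-19 h (the 24th). It reached 6831 RPM at 19-20 h, where it was the 4th gene, and 24475 RPM at 20-21 h, where it was first. From 21-22 h the level stayed between 44111 and 78072 RPM and moved up and down between neighbouring windows by more than the counting intervals.

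**Figure D1:**
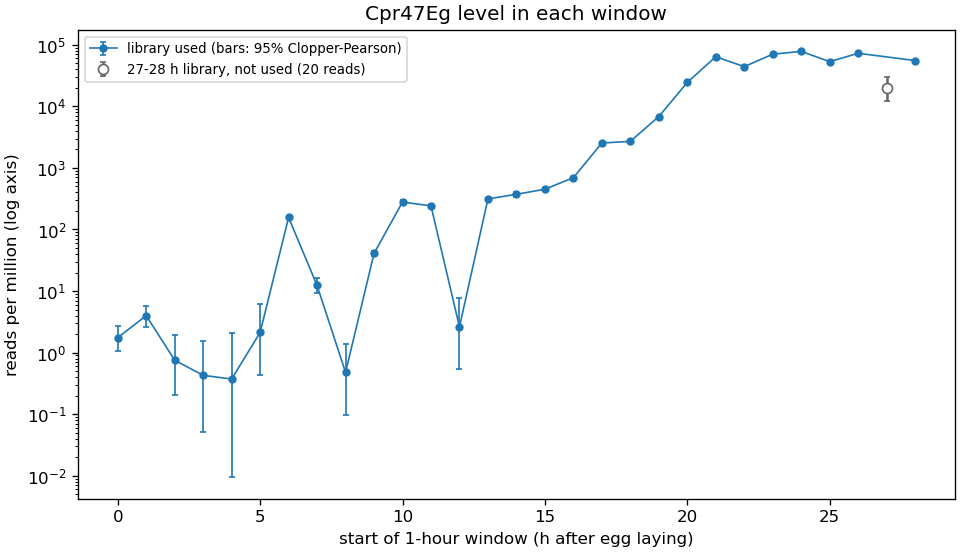
Level of Cpr47Eg (RPM, log axis) against the start of the window in hours after egg laying. Filled points are the 28 libraries used, the open point is the 27-28 h library, and bars are 95% Clopper-Pearson intervals; the level was at or under 3.99 RPM before 6 h and between 24475 and 78072 RPM from 20 h in the libraries used.

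Before 16 h the course of Cpr47Eg was not smooth. In the 6 windows before 6 h it had between 1 and 28 reads, or 0.373 to 3.99 RPM. It then stood at 157 RPM at 6-7 h (1400 reads, interval 149 to 165), at 12.3 RPM in the next window and at 0.478 RPM in the one after (8-9 h, 3 reads). The next 3 windows had 40.9, 279 and 242 RPM, and the one at 12-13 h had 2.63 RPM (3 reads). Levels of 314, 373 and 451 RPM followed in the windows from 13 h to 16 h. The windows at 6-7, 10-11 and 11-12 h were thus high, and those at 8-9 and 12-13 h low, by far more than counting error. Around a spline of the hour with 5 degrees of freedom, fitted to log2(RPM + 1), the residual SD of Cpr47Eg was 1.86 (log2), against a median of 0.50 over all genes, and 99.96% of genes had a smaller one.

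Most of the other late genes examined were high and low in the same windows. A list of 25 other genes was put together after the course of Cpr47Eg had been seen: each exceeded 1000 RPM in some window and had 95% or more of its total signal in windows from 19 h on. Per 10000 of the gene's own maximum, Cpr47Eg stood at 20.1 at 6-7 h, and the 25 genes had a median of 12.3. At 8-9 h the values were 0.0612 for Cpr47Eg and a median of 0.614 for the 25 genes. At 10-11 h they were 35.8 for Cpr47Eg and 15.6 for the others, at 12-13 h 0.336 and 1.95, and at 13-14 h 40.2 and 18.4. Of the 25 genes, 24 had a read at 6-7 h and 25 at 10-11 h, compared with 14 in each of the windows at 8-9 h and 12-13 h. Depth bears on these counts. The denominator was 8937932 reads at 6-7 h, 6282350 at 8-9 h and 4213451 at 10-11 h, but 1142203 at 12-13 h, where a low gene is more easily missed. Of the 25 genes, 21 were higher at 6-7 h than at 8-9 h, and 23 higher at 10-11 h than at 8-9 h. Compared with 12-13 h, 22 were higher at 10-11 h and 23 higher at 13-14 h. All 4 of these differences held for 19 of the 25 genes. The pairs of windows follow the course of Cpr47Eg, and the share over all genes was not counted. At least 1 gene ran the other way: the highest value among the 25 was 101.5 at 8-9 h and 35.7 at 6-7 h. The part that the pooling of barcoded windows, or the staging of single collections, had in this signal was not tested.

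**Figure D2:**
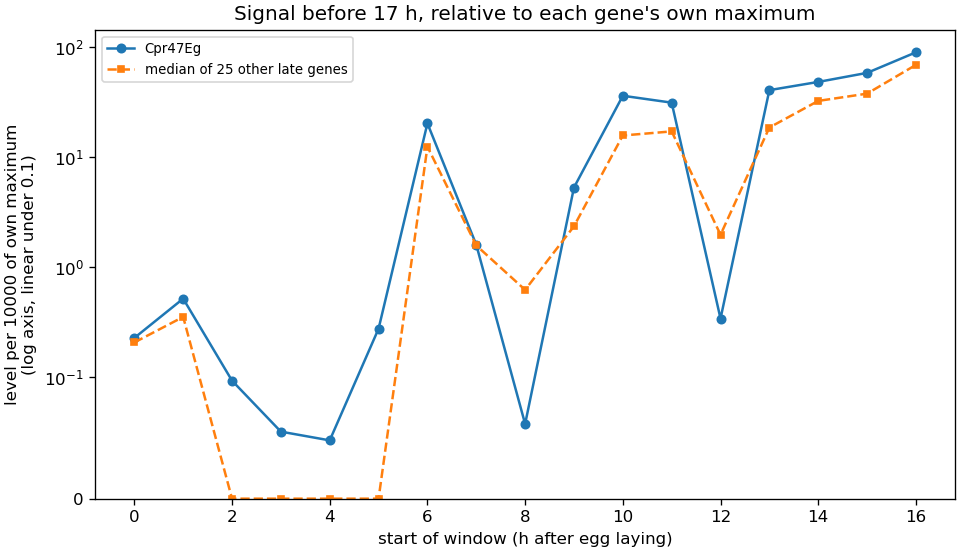
Level per 10000 of the gene's own maximum (log axis, linear under 0.1) in windows starting before 17 h, for Cpr47Eg (circles) and the median of 25 other late genes (squares). Both lines stand higher at 6-7 h, at 20.1 and 12.3, than in the windows on either side, and both dip at 8-9 h and at 12-13 h.

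Edg78E, whose *D. melanogaster* counterpart encodes a pupal cuticle protein, had a late pulse of RNA level in these embryos. No read fell in the 6 windows before 6 h, and between 0 and 14 reads fell in each window from 6-7 h to 16-17 h, at most 1.95 RPM. Its level was then 20.8 RPM at 17-18 h (27 reads), and 34.4, 92.3 and 111 RPM in the windows from 18 h to 21 h. It peaked at 203 RPM at 21-22 h (188 reads, interval 175 to 234). The next 3 windows had 41.4, 56.0 and 43.3 RPM, and the level was 12.4, 19.2 and 5.59 RPM in the last 3 windows used. The peak window lay above all others beyond counting error, and 92.8% of the summed RPM fell in the 8 windows from 17 h to 25 h. Its maximum was higher than that of 75.9% of all genes. The residual SD around the spline was 0.83 (log2).

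Cpr47Ec had a similar pulse at a lower level. It had 17 reads in all before 18 h, of which 11 fell at 16-17 h, and none at 17-18 h. Its level was 4.78 RPM at 18-19 h (30 reads), 20.0 RPM at 19-20 h (16 reads, interval 11.4 to 32.4) and highest at 20-21 h, with 26.0 RPM (19 reads, interval 15.6 to 40.5). In the windows from 21 h to 25 h it was 11.9, 12.4, 5.39 and 1.32 RPM. No read fell at 25-26 h, where 3 reads would be 4.12 RPM, and 5 and 2 reads fell at 26-27 h and 28-29 h. The interval at 20-21 h overlapped those of the 3 windows at 19-20, 21-22 and 22-23 h, so the hour of the peak is uncertain. Differences between these windows were not tested.

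Cpr47Ee was low and spread out over the second part of the series. It had 1 read at 9-10 h, 1 at 11-12 h and between 1 and 24 reads in every window used from 12-13 h on. Levels lay between 1.47 and 2.73 RPM in the 9 windows from 12 h to 21 h. The maximum was 7.55 RPM at 21-22 h, from 7 reads, with an interval of 3.04 to 15.6 RPM that overlapped those of the neighbouring windows. The deepest count was 24 reads at 24-25 h, or 4.54 RPM (interval 2.91 to 6.75). Of its summed RPM, 65.3% fell in its best 8 windows, compared with 92.8% for Edg78E and for Cpr47Ec. Its residual SD was 0.36 (log2), on a scale where the scatter of low genes comes out too small.

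Cpr47Eb was the last to appear and the rarest, with 39 reads in all. A single read fell at 16-17 h and another at 19-20 h, and none in the other windows before 22 h. It had 2 reads at 22-23 h (1.38 RPM), 9 at 23-24 h (2.70 RPM), 5 at 24-25 h (0.946 RPM), 2 at 25-26 h (2.75 RPM), 14 at 26-27 h (4.97 RPM) and 5 at 28-29 h (5.59 RPM). The highest level thus stood at 28-29 h, the last window, although its interval of 1.82 to 13.0 RPM included the levels of the 3 windows at 23-24, 25-26 and 26-27 h.

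**Figure D3:**
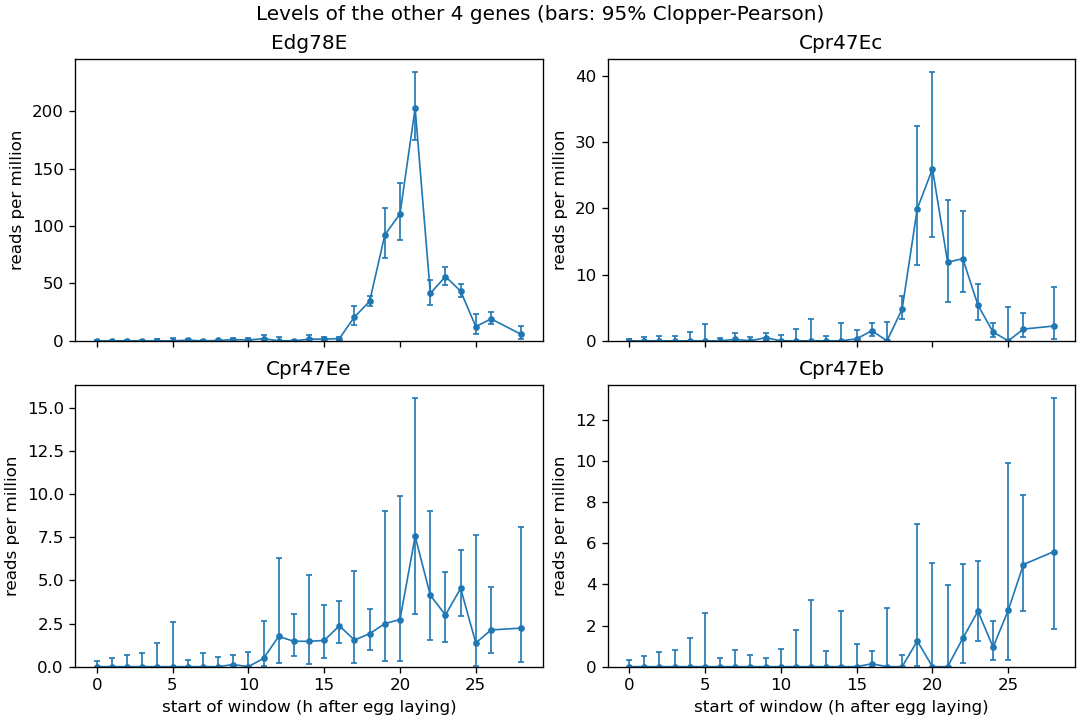
Levels of Edg78E, Cpr47Ec, Cpr47Ee and Cpr47Eb (RPM, a separate linear axis for each gene) against the start of the window in hours after egg laying, in the 28 libraries used, with 95% Clopper-Pearson intervals. Edg78E and Cpr47Ec form a pulse with maxima of 203 and 26.0 RPM, Cpr47Ee has at most 4.54 RPM outside its highest window, at 7.55 RPM, and Cpr47Eb appears last.

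Reads of neighbouring windows were pooled to reduce the counting error, which gives deeper libraries more weight. Over 0-6 h no read fell on Edg78E, Cpr47Ec, Cpr47Ee or Cpr47Eb, with an upper limit of 0.111 RPM for each. Folds for these genes were taken against a floor of 3 reads over the 6 libraries, or 0.0907 RPM. Cpr47Eg had 59 reads over 0-6 h, or 1.78 RPM (interval 1.36 to 2.30). At its highest pooled level Edg78E reached 76.1 RPM, over 21-24 h (interval 69.1 to 83.6), 840 times the floor. For Cpr47Ec the highest was 8.33 RPM, over 18-21 h (91.9 times the floor). For Cpr47Ee it was 4.02 RPM, over 21-24 h (44.4 times), and for Cpr47Eb 2.67 RPM, over 24-29 h (29.5 times). These folds are not lower bounds, since the upper limit over 0-6 h lay above the floor and the later levels have counting error. Cpr47Eg reached 72567 RPM over 24-29 h, 40698 times its 0-6 h value, which rests on 59 reads. The part that the pooling of barcoded windows had in those reads was not tested.

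The genes differed in what happened after 24 h. Edg78E had 47.5 RPM over 18-21 h, 76.1 RPM over 21-24 h and 30.5 RPM over 24-29 h (interval 27.2 to 34.2). Cpr47Ec had 8.33, 8.22 and 1.44 RPM over these 3 phases, with an interval of 0.787 to 2.41 RPM in the last. Cpr47Ee had 2.05, 4.02 and 3.39 RPM, whose intervals overlapped. Cpr47Eb had 0.128, 1.92 and 2.67 RPM, and Cpr47Eg 5167, 62631 and 72567 RPM. So in pooled reads Edg78E and Cpr47Ec were lower after 24 h than over 21-24 h beyond counting error, and Cpr47Eg was higher. For Cpr47Eg the median of single windows was nearly the same, at 63880 RPM over 21-24 h and 64039 RPM over 24-29 h. The 24-25 h library, at 78072 RPM, was the deepest of the later phase. For Cpr47Ee and for Cpr47Eb the intervals of these phases overlapped, and the difference was not tested. In single windows Cpr47Ec ranged from 0 to 2.24 RPM after 24 h, against 5.39 to 12.4 RPM over 21-24 h. For Edg78E the ranges were 5.59 to 43.3 RPM after 24 h, against 41.4 to 203 RPM, and for Cpr47Eg 53187 to 78072 RPM after 24 h, against 44111 to 70335 RPM. How many of all genes differed between these phases, in pooled reads or in single windows, was not counted.

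Over the 8 libraries from 20 h on, the order of pooled levels was Cpr47Eg (66881 RPM), Edg78E (50.3 RPM), Cpr47Ec (4.95 RPM, interval 3.92 to 6.16), Cpr47Ee (3.59 RPM, 2.72 to 4.64) and Cpr47Eb (2.29 RPM, 1.61 to 3.15). The intervals of Cpr47Ec and Cpr47Ee overlapped, as did those of Cpr47Ee and Cpr47Eb. Overlap does not show that levels are equal, and the differences between these neighbours in the order were not tested. Cpr47Eg had 1081839 reads there, 1095 times the 988 reads of the other 4 genes together and 1331 times those of Edg78E.

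**Figure D4:**
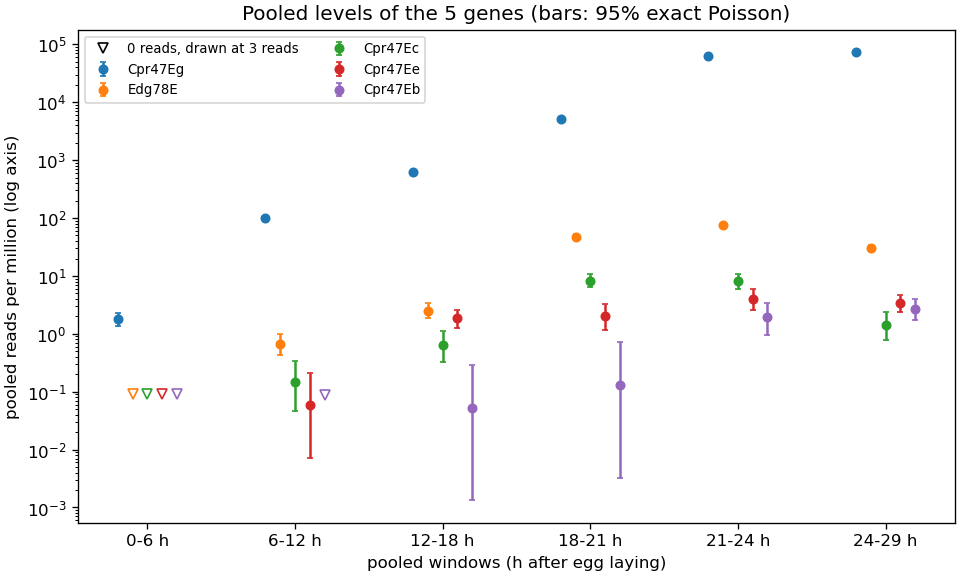
Pooled levels of the 5 genes (RPM, log axis) over 6 phases of embryogenesis, with 95% exact Poisson intervals. Open triangles mark 0 reads and are drawn at the level of 3 reads; from 18 h on Cpr47Eg lies above Edg78E, and Edg78E above the other 3 genes, in every phase.

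Onset was taken as the first window of the last unbroken run of windows at or above 10% of the gene's own maximum, whether or not the level later fell under it again. It was 12-13 h for Cpr47Ee, 17-18 h for Edg78E, 18-19 h for Cpr47Ec, 20-21 h for Cpr47Eg and 22-23 h for Cpr47Eb. For Cpr47Ee and Cpr47Eb depth sets the hour, because 10% of the maximum was less than 1 read in the deciding libraries. A read was worth 0.876 RPM at 12-13 h and 0.689 RPM at 22-23 h. The 0 reads of Cpr47Eb at 20-21 h and 21-22 h allowed up to 5.04 and 3.98 RPM. After their runs Edg78E fell under 10% from 25-26 h and Cpr47Ec from 24-25 h. The highest window was 20-21 h for Cpr47Ec, 21-22 h for Edg78E and Cpr47Ee, 24-25 h for Cpr47Eg and 28-29 h for Cpr47Eb. For Cpr47Ec, Cpr47Ee and Cpr47Eb the interval of the highest window overlapped those of other windows, so this order is uncertain. For Cpr47Eg the onset depends on the measure: a fixed level of 10 RPM was held from 13-14 h on, where the gene stood at 0.402% of its maximum.

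The 5 genes were read against the whole table. A maximum of at least 10 RPM was reached by 7289 genes, among them Cpr47Ec, Cpr47Eg and Edg78E, while Cpr47Eb and Cpr47Ee stayed under it. For all 3, some run of 8 windows carried 60% or more of the signal, which held for 28.3% of the 7289 genes. All 3 peaked in a window starting at 20 h or later, as did 22.9% of them. A time course was called by limma (F-test of the spline, Benjamini-Hochberg adjusted p under 0.05) for 91.2% of the 8445 genes that reached 1 RPM and for all 5 cuticle genes, and the fitted level was called and higher at the last than at the first window for 40.8% of genes and for all 5. These genes were listed with late courses known, so nothing is read from the counts.

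The size of the fitted difference between the last and the first window varied widely, in units of log2(RPM + 1), where differences of low genes come out too small. It was 14.31 ± 2.08 for Cpr47Eg, 2.92 ± 0.38 for Cpr47Eb, 2.09 ± 0.93 for Edg78E, 1.31 ± 0.40 for Cpr47Ee and 0.28 ± 1.07 for Cpr47Ec (SE from the scatter of 28 libraries around the spline). Except for Cpr47Eg these values and their order depend on the fit: over the alternatives tried they lay between 13.77 and 15.83 for Cpr47Eg, 1.94 and 8.88 for Cpr47Eb, 1.11 and 9.08 for Edg78E, 0.67 and 6.29 for Cpr47Ee and 0.15 and 6.81 for Cpr47Ec (log2). The lowest of each came with all 29 libraries and the highest with DESeq2 on the recovered reads. The pooled level of Cpr47Ec over 24-29 h was 1.44 RPM, against 0 reads over 0-6 h. Scaling libraries by their upper quartile in place of RPM shifted log2 levels by between −0.38 and 0.32, with a median of 0.18 in windows from 20 h and −0.13 in those before 6 h, and left each gene's peak in the same window. Under it, 55.6% of called genes were higher in the last window, against 44.7% in RPM.

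The courses resembled each other to differing degrees. Pearson's r of log2(RPM + 1) over the 28 libraries had a median of 0.69 over the 10 pairs. It was highest between Edg78E and Cpr47Eg (0.86) and between Edg78E and Cpr47Ec (0.86), and lowest between Cpr47Eb and Cpr47Ec (0.34). These values share the libraries, their depth and the zeros of the early windows, and are a description only. Among 7286 other genes that reached 10 RPM, the most similar to Cpr47Eg (FBgn0038294) had r = 0.98 and a maximum of 2155 RPM at 23-24 h. The most similar to Edg78E (FBgn0035543) also had r = 0.98 and peaked at 21-22 h, with 62.6 RPM. The best r with an outside gene was at least 0.94 for each of the 5.

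Each of the 5 genes was counted from a single start-site cluster (TSC, a group of neighbouring start sites taken as 1 promoter), and the reads of gene and TSC were equal in every library. Positions are those of FlyBase release r2.9 as deposited. Cpr47Eb started at chromosome 3, 11029674 to 11029679 on the plus strand (6 bp wide), Cpr47Ec at 11034019 to 11034027 on the minus strand (9 bp), Cpr47Ee at 11039066 to 11039075 on the plus strand (10 bp) and Cpr47Eg at 11050927 to 11051192 on the minus strand (266 bp). Edg78E started on XR_group6, 12655739 to 12655755 on the minus strand (17 bp). Whether these positions are exonic or in a UTR was not looked up, because no annotation of that release was used here.

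Along chromosome 3 the 4 Cpr47E start-site clusters thus alternated in strand over 21519 bases, with 4339, 5038 and 11851 bases between neighbours. The RefSeq annotation of another assembly gives the order Cpr47Ea, Cpr47Eb, a gene with no symbol of its own, Cpr47Ec, Cpr47Ed, Cpr47Ee, Cpr47Ef, TpnC47D and Cpr47Eg. Over the 29 libraries Cpr47Eb had 39 reads, Cpr47Ec 143 and Cpr47Ee 109, and Cpr47Eg stood apart from these with 1119569. Edg78E had 1174. Between Cpr47Ee and Cpr47Eg lay the TSC of another gene, with 6344 reads. The width of a start-site cluster moves with its reads. Gene-assigned TSCs under 1000 reads had a median width of 26 bp, those from 1000 to 100000 reads 103 bp, and the 127 with 100000 reads or more 172 bp, with an upper quartile of 306.5 bp. The 6701 gene-assigned TSCs with 15 to 200 reads had a median width of 18 bp and a lower quartile of 13 bp, and Cpr47Eb, Cpr47Ec and Cpr47Ee all lay under that quartile. Cpr47Eg, at 266 bp, lay within the quartiles of its class, and no TSC but 2 held more reads.

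**Figure D5:**
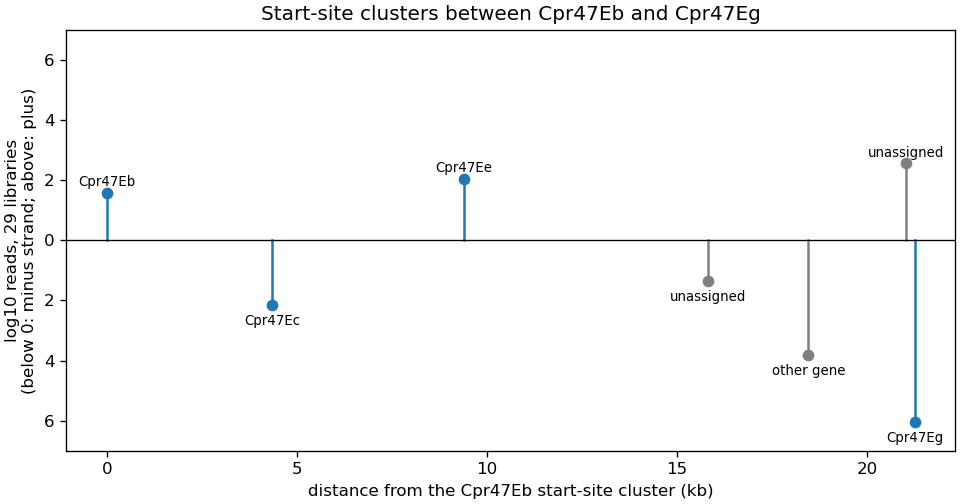
Start-site clusters between Cpr47Eb and Cpr47Eg, by distance from that of Cpr47Eb (kb) and log10 of reads over 29 libraries, plus strand upward and minus strand downward. Blue marks the 4 Cpr47E genes and grey 1 other gene and 2 unassigned clusters; Cpr47Eg, with 1119569 reads, stands far from the other 3, which have 39 to 143.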

How the data were processed

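RAMPAGE libraries came from whole embryos, 1 per 1-hour window. The authors mapped reads with STAR (version not given in the sources used here) to the FlyBase r2.9 genome, called TSCs on the pooled series and removed those over rDNA repeats. The deposited gene and TSC tables hold RPM. The deposited TSC intervals carry a score of unstated meaning. A deposited table of aligned z-scores was not used.

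Whole reads were recovered by dividing each RPM value by what 1 read is worth in its library: 100% of nonzero values came within 0.1 of a whole number. Genes and lists were chosen with earlier results of these data known. Named genes were the listed genes and the 3 most correlated others, of which the closest to Cpr47Eg and Edg78E are given. No table pairs the *D. melanogaster* identifiers with symbols, so further pathway genes were not analysed here.

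Time courses were fitted with limma 3.58.1 in R 4.3.3 (trend, natural cubic spline with 5 degrees of freedom, log2(RPM + 1), maximum of at least 1 RPM). The fit was also run on simulated counts, drawn independently and with no shift shared by a library. That run cannot show how the fit behaves where many genes move together between windows. Alternatives included edgeR 4.0.16 (quasi-likelihood) and DESeq2 1.42.0 on the recovered reads, which called 7397 and 7376 genes, against 7706 for limma. With 1 library per window, errors measure scatter around a smooth course. Intervals used SciPy 1.17.1.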

Additional observations from a re-analysis of the deposited data

Results flagged for a closer look

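In the 27-28 h library, which entered no comparison, Cpr47Eg had 20 reads of 1017 in the denominator, or 1.97% (Clopper-Pearson interval 1.21% to 3.02%), and was the second gene by rank. Its neighbours in time lay at 7.27% at 26-27 h and 5.54% at 28-29 h, above that interval. Cpr47Eb, Cpr47Ec, Cpr47Ee and Edg78E had no read there, where 3 reads would be 2950 RPM. The cause was not tested.

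A start-site cluster that the authors assigned to no gene lay on the plus strand of chromosome 3, 11050706 to 11050738, opposite to Cpr47Eg and 188 bases downstream of its start-site cluster. It held 365 reads, with none before 16 h. Its level reached 25.97 RPM at 23-24 h, 18.9 RPM at 24-25 h, 78.8 RPM at 25-26 h (57 reads) and 14.3 RPM at 26-27 h. For each 10000 reads of Cpr47Eg it had 14.7 at 25-26 h and 12.0 at 16-17 h (6 reads), and between 1.52 and 5.31 in the other used windows from 17 h on. At 6-7 h, where Cpr47Eg had 1400 reads, it had 0. At ratios of 1.52 to 5.31 for each 10000, that is too few Cpr47Eg reads to expect one. The 0 therefore does not set this window apart from the later ones.

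The deposited score of the Cpr47Eg start-site cluster was 40.1% of its reads. Among 16283 start-site clusters with at least 100 reads no other was lower, the next stood at 45.5%, and the median of the 127 gene-assigned clusters with 100000 reads or more was 89.2%. For the other 4 genes the score was 88.8% to 94.5% of the reads. What the score counts is not stated, and its bearing on the level of Cpr47Eg relative to other genes was not tested.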

How the results depend on the processing

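Of 75 results recomputed under an alternative, 67 stayed within the limits set (a count within 1.5 times, an hour within 1 window, a correlation within 0.05) and 8 moved. With a maximum of at least 10 RPM, 3 of the 5 genes remained in the time-course fit and all 3 were called. The median correlation was 0.75 by Spearman's rho and 0.59 over windows from 12 h on, against 0.69. At 50% of the maximum the onset (start of the last unbroken run) was 20-21 h for Edg78E, 24-25 h for Cpr47Ee and 26-27 h for Cpr47Eb. At 5% it was 26-27 h for Cpr47Ec, since no read fell at 25-26 h in a shallow library. The pooled level of Cpr47Eg at 6-12 h, 101.3 RPM, was 81.8 RPM without the 6-7 h library and 76.4 RPM without the 10-11 h library (chosen after seeing the data). The share of called genes higher in the last window was 44.7%, and 38% with all 29 libraries, 55.6% with upper-quartile scaling, 58.8% with edgeR and 63.4% with DESeq2. Depth limits the 4 low genes: at 1.37 RPM per read, 3 reads at 25-26 h are 4.12 RPM, above most levels of Cpr47Ee and Cpr47Eb. No paired analysis was possible because every window has 1 library.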
